A study of Mus musculus with 4 samples.

Results

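The genes described here are 10 targets of the transcription factor NRF2, taken by name out of the 27998 genes of the count tables: Gclc, Gclm, Nqo1, Hmox1, Txnrd1, Srxn1, Prdx1, G6pdx, Taldo1 and Osgin1. All 10 were found. They were measured by droplet single-cell RNA sequencing in kidneys of male C57BL/6 mice aged 6 to 8 weeks that had received intraperitoneal glyoxylate on 0, 1, 4 or 7 successive days (D0, D1, D4 and D7). Glyoxylate is turned into oxalate in the body, and the series calls the model calcium oxalate nephropathy. Each day had 1 library, and the number of mice behind a library is not given in the sources used here. The days therefore had no replicates, no test between animals was possible, and every interval below is a 95% interval that covers counting error only.

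NRF2, encoded by Nfe2l2, is held at a low level by KEAP1, an adaptor that hands it to a CUL3 ubiquitin ligase for degradation. Oxidants and electrophiles modify KEAP1, after which NRF2 builds up, pairs with a small MAF protein and binds antioxidant response elements, while BACH1 competes for the same sites, above all at Hmox1. The targets make glutathione, reduce quinones and peroxides, break down haem and supply NADPH. In the kidney the proximal tubule, which is rich in mitochondria and handles oxalate and xenobiotics, is a place where this response has long been studied.

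The 10 genes did not move as a block. In proximal tubule cells Gclc, the catalytic subunit of the rate-limiting enzyme of glutathione synthesis, was 1.51 (1.47 to 1.55) times its D0 level at D1, 0.883 times at D4 and 1.45 (1.42 to 1.49) times at D7. Osgin1, a growth inhibitor induced by oxidants, took another course, at 0.849 times at D1 and 1.64 (1.60 to 1.69) and 1.54 (1.5 to 1.59) times at D4 and D7. Hmox1, the enzyme that opens the haem ring, was 1.35 (1.29 to 1.41) times at D7 in proximal tubule cells and 4.15 (2.79 to 6.41) times in macrophages. Along the tubule Gclc, Gclm and Nqo1 stood higher in cells with Slc7a13 than in cells with Slc5a2 or Slc5a12 on each of the 4 days.

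The promoter sequences of RefSeq on GRCm38.p6 cover 250 bases before to 50 bases after a gene's start, and 8 of the 10 genes, with 10 starts, were in them. Hmox1 and Gclc were not among these entries. The core letters of the antioxidant response element, TGACNNNGC or GCNNNGTCA on the other strand, were present in 12.4% of all 32851 promoters and in 14.0% of the 27025 gene symbols. Of the 8 genes 5 held them: Gclm, Prdx1, Txnrd1, G6pdx and Srxn1. Nqo1, Taldo1 and Osgin1 did not hold these letters in this window. The following stretches show the match in its surroundings for 3 genes. In these the match lies before the start, and the stretch overlaps no annotated exon of the same gene. Each is read 5′ to 3′ on the gene's strand, with the match in capitals.
Gclm, chr3:122245377-122245477: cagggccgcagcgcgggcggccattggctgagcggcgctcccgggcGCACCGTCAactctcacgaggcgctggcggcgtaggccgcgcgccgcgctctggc
Prdx1, chr4:116685420-116685520: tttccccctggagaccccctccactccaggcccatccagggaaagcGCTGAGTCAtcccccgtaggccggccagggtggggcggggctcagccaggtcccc
Txnrd1, chr10:82859068-82859168: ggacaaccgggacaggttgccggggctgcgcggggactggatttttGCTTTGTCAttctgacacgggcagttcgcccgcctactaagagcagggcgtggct

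The match begins 134, 133 and 92 bases before the RefSeq start in these 3 genes, which all lie on the plus strand, and is written in the GCNNNGTCA form in each. Txnrd1 has 3 starts in the table, and the 1 shown lies in an intron of a longer annotated Txnrd1 transcript. In G6pdx the match GCTCAGTCA lies 57 bases before the start, and in Srxn1 the match GCTAGGTCA begins 28 bases after it. The letters of an AP-1 site, TGACTCA or TGAGTCA, were found in Prdx1, Srxn1 and Osgin1 and in 5.2% of all promoters. In Prdx1 the AP-1 letters overlap the antioxidant match, as GCTGAGTCA holds TGAGTCA. These are matches of letters only. The genes with and without a match were not tested against each other, and the D7 ratios of the 5 with a match in proximal tubule cells ran from 0.887 in Prdx1 to 1.31 in G6pdx.

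Cells with at most 50% mitochondrial (mt-) unique molecular identifiers (UMIs, 1 for each captured transcript) were gated on marker UMIs. Proximal tubule cells had at least 2 UMIs of Lrp2 and Slc34a1 together and numbered 12003, 8044, 15468 and 13079 at D0, D1, D4 and D7. Thick limb cells (Slc12a1 at least 3) numbered 106, 108, 106 and 173, distal tubule cells (Slc12a3 at least 3) 353, 264, 208 and 310, and macrophages (C1qa, C1qb and C1qc together at least 5) 158, 177, 127 and 194. The libraries held 99337001, 85009491, 91122085 and 94512170 UMIs. The shallowest deposited cell had 500 UMIs in the D0 and the D1 library, 2919 in the D4 library and 2773 in the D7 library, so shallow cells are listed for the first pair of days only. Any pair of libraries shared 50 to 81 barcodes, at most 0.537% of a library.

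In the proximal tubule gate the 12 proximal tubule markers summed to 63802, 53640.1, 60873 and 51258 UMIs per 1000000 UMIs of the gate (CPM), and the 9 macrophage markers to 138, 255, 207 and 312. The thick limb gate held 16843, 15756, 13769.5 and 12944 CPM of its 6 markers. The distal gate held 6330.3, 5196, 3895 and 4919 CPM of its 5 markers and 6290.0, 5743, 4272 and 4724 CPM of the thick limb list, which includes Egf. The macrophage gate held 36216, 29793, 15941 and 20434 CPM of the macrophage list. These last 3 gates also carried proximal tubule RNA, and whether it came from free RNA or from doublets was not tested. Over the 12 markers its median level was 27.4, 26.4, 38.4 and 30.5% of that in the proximal tubule gate for thick limb cells, 25.2, 17.7, 48.4 and 31.7% for distal cells and 45.6, 36.4, 62.6 and 35.7% for macrophages. Of the macrophages 32.3, 22.0, 84.3 and 54.6% also passed the proximal tubule gate.

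Levels are CPM, and a gene was called higher or lower when its ratio of CPM to D0 was at least 1.5 or at most 1/1.5 with at least 50 UMIs in both libraries together. In the proximal tubule gate all 10 genes had that depth. At each day 1 of 10 was called higher (Gclc at D1, Osgin1 at D4 and D7) and 0 lower. Of all genes measured in the same comparisons, 9.39, 8.17 and 13.3% were called higher at D1, D4 and D7 and 1.71, 2.87 and 3.43% lower, so the count among the 10 was near the background. Ratios above 1 were found in 9, 6 and 8 of the 10. The median log2 ratio of the 10 was 0.29, 0.04 and 0.34, beside 0.12, 0.03 and 0.08 over all genes. Scaling by edgeR's trimmed mean of M values (TMM) shifts every log2 ratio in this gate by -0.14, -0.03 and -0.08, and thereby ended the calls of Gclc at D1 (1.37 times) and of Osgin1 at D7 (1.46 times).

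Glutathione synthesis starts with glutamate-cysteine ligase, whose catalytic and modifier subunits are Gclc (ENSMUSG00000032350, chromosome 9, 77754535 to 77794485, plus strand; all positions are mm10, GENCODE M21) and Gclm (ENSMUSG00000028124, chromosome 3, 122245557 to 122270732, plus strand). Gclc stood at 109, 164, 96.1 and 158 CPM at D0, D1, D4 and D7 in proximal tubule cells. It was high at D1 and D7 and low at D0 and D4. The D4 level was 0.585 (0.569 to 0.602) times that of D1, and the D7 level 1.65 (1.60 to 1.69) times that of D4, so both of these steps passed the threshold too. In those pairs 1 of 10 genes (Osgin1) was called higher and 1 (Gclc) lower at D4 against D1, beside 6.43 and 8.95% of all genes, and 1 (Gclc) was called higher and 0 lower at D7 against D4, beside 5.87 and 1.52%. Gclm stood at 464, 594, 473 and 516 CPM, highest at D1 at 1.28 (1.26 to 1.30) times D0, and within 1.5-fold of D0 throughout. With TMM scaling the Gclc ratios at D1 and D7 were level, at 1.37 and 1.37.

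Nqo1 (ENSMUSG00000003849, chromosome 8, 107388225 to 107403206, minus strand), which reduces quinones by 2 electrons at a time, stood at 28.5, 39.4, 33.7 and 40.5 CPM, and its D7 ratio of 1.42 (1.35 to 1.5) was under the threshold. Hmox1 (ENSMUSG00000005413, chromosome 8, 75093621 to 75100589, plus strand) stood at 40.6, 52.1, 52.7 and 54.7 CPM. All 3 treated days lay close together and above D0, at 1.29, 1.30 and 1.35 times it. The macrophage markers in the same gate were also above their D0 level on these days, as given above. With the cells that passed more than 1 gate left out, the Hmox1 ratios were 1.28, 1.28 and 1.33.

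Txnrd1, thioredoxin reductase (ENSMUSG00000020250, chromosome 10, 82833951 to 82897712, plus strand), stood at 85.4, 111, 79.9 and 91.5 CPM, with D1 the highest day at 1.30 (1.26 to 1.34) times D0. Srxn1, sulfiredoxin, which repairs over-oxidised peroxiredoxins (ENSMUSG00000032802, chromosome 2, 152105516 to 152111376, plus strand), stood at 23.9, 27.7, 24.8 and 29.2 CPM. Prdx1, a peroxiredoxin that removes hydrogen peroxide (ENSMUSG00000028691, chromosome 4, 116685544 to 116700822, plus strand), stood at 1996, 2320.5, 1731 and 1771 CPM. Prdx1 was 1.16 times D0 at D1 and 0.867 and 0.887 times at D4 and D7, so it lay on both sides of its D0 level by margins wider than counting error.

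G6pdx, the first enzyme of the pentose phosphate pathway and a source of NADPH (ENSMUSG00000031400, chromosome X, 74409483 to 74429194, minus strand), was sparse in proximal tubule cells, at 6.00, 7.01, 7.04 and 7.87 CPM, and reached 1.31 (1.17 to 1.48) times at D7. It has an autosomal copy, G6pd2, with which reads could be shared. Taldo1, transaldolase of the same pathway (ENSMUSG00000025503, chromosome 7, 141392199 to 141402968, plus strand), stood at 306, 355, 249 and 253 CPM and resembled Prdx1, with ratios of 1.16, 0.815 and 0.826. Osgin1 (ENSMUSG00000074063, chromosome 8, 119434124 to 119446256, plus strand) stood at 94.5, 80.2, 155 and 146 CPM. It was lowest at D1, the day on which the other 9 genes were all above D0, and its D4 level was 1.94 (1.88 to 2.00) times that of D1.

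**Figure D1:**
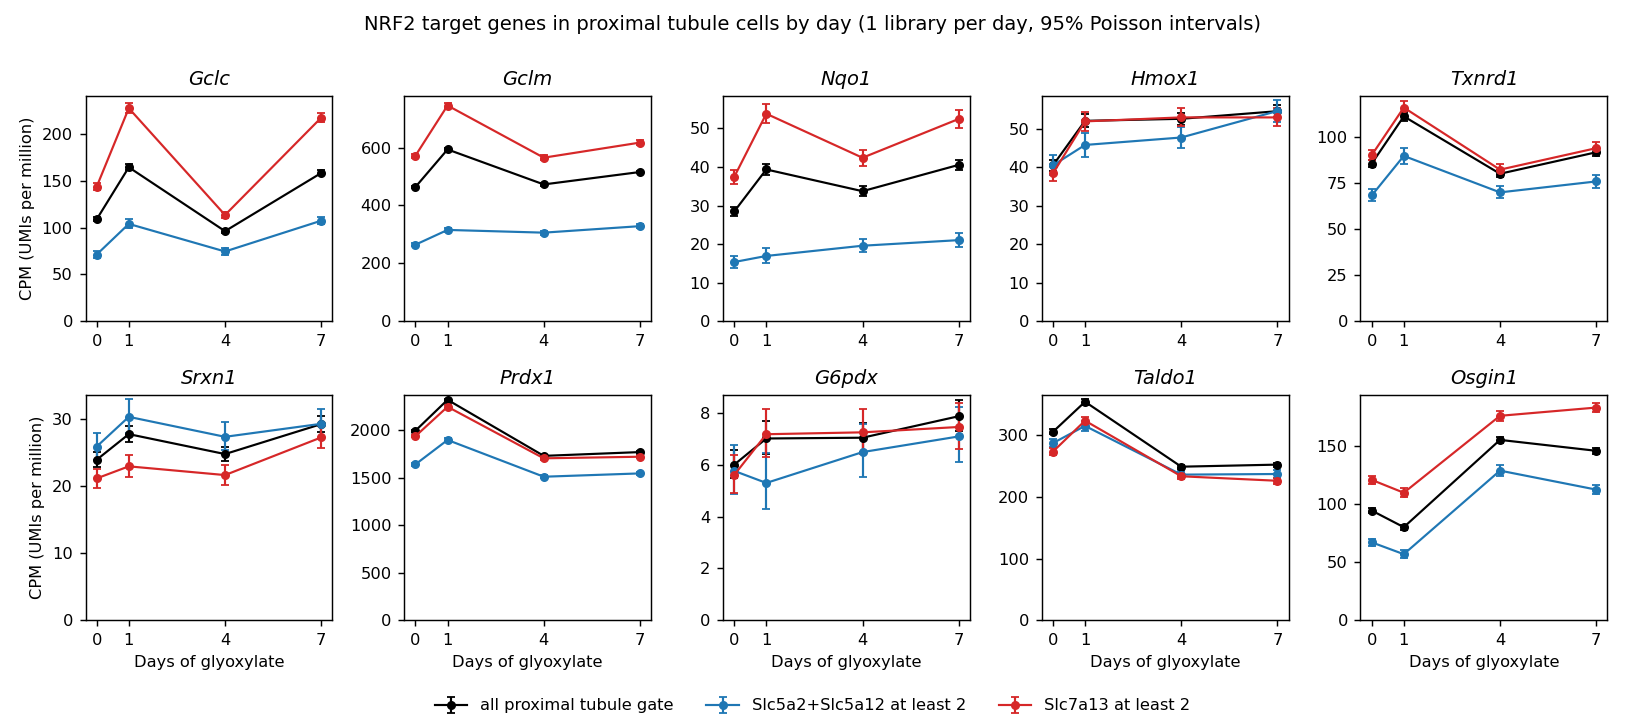
CPM (y axis, from 0) of the 10 genes against days of glyoxylate (x axis) in all proximal tubule gate cells (black), in those with at least 2 UMIs of Slc5a2 and Slc5a12 together (blue) and in those with at least 2 of Slc7a13 (red). Points are 1 library each with 95% Poisson intervals. Gclc is high at D1 and D7, Osgin1 at D4 and D7, and the red points of Gclc, Gclm, Nqo1 and Osgin1 lie above the blue ones on every day.

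Slc5a2 and Slc5a12 are transporters of the early proximal tubule and Slc7a13 one of its last segment. The early gate held 3369, 1953, 4414 and 3879 cells and the Slc7a13 gate 4379, 2652, 5598 and 4846, of which 375, 171, 636 and 538 cells passed both. Gclc was 2.02, 2.19, 1.52 and 2.03 times as high in Slc7a13 cells as in early cells at D0, D1, D4 and D7. The ratio was 2.16, 2.36, 1.85 and 1.88 for Gclm and 2.44, 3.18, 2.17 and 2.49 for Nqo1, the highest of the 10 on each day. At D0 Nqo1 stood at 37.4 CPM in Slc7a13 and 15.3 CPM in early cells. Osgin1 followed at 1.80, 1.93, 1.37 and 1.63 and was under the threshold at D4. The other 6 genes ranged from 0.757 to 1.35 and were never called.

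So 4, 4, 3 and 4 of the 10 were called higher in Slc7a13 cells, where 7.22, 7.29, 5.32 and 4.76% of all genes were, and 0 lower, where 17.1, 16.1, 13.3 and 12.9% were. Slc7a13 cells were also deeper, with median UMIs of 8731, 10659, 6288.5 and 7371 against 6235, 7966, 4953.5 and 5766, and the part of depth in these ratios was not tested. Within both segments Gclc and Osgin1 were called higher at D7. Gclc was 1.51 (1.42 to 1.60) times D0 in early and 1.51 (1.46 to 1.56) times in Slc7a13 cells, and Osgin1 1.68 (1.58 to 1.78) and 1.51 (1.46 to 1.57) times. In early cells 0, 1 and 2 of 10 were called higher at D1, D4 and D7, beside 4.89, 6.83 and 10.2% of all genes, and 0 lower, beside 1.42, 1.38 and 2.58%. In Slc7a13 cells 1, 0 and 2 were called higher, beside 5.93, 9.24 and 11.8%, and 0 lower, beside 1.62, 1.98 and 2.3%. At D4 Gclc stood at 1.05 (0.979 to 1.12) times D0 in early cells and 0.789 (0.758 to 0.821) times in Slc7a13 cells. These intervals do not overlap, although both ratios were inside the threshold.

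Havcr1 (Kim-1) is made by injured proximal tubule cells. Cells of the proximal tubule gate with at least 1 Havcr1 UMI numbered 10, 113, 468 and 604 at D0, D1, D4 and D7, and they were compared with Havcr1-negative cells of the same library at D1, D4 and D7. At D1 Gclc stood at 362 CPM in positive and 160.3 in negative cells, a ratio of 2.26 (2.06 to 2.47). Hmox1 stood at 129.5 and 50.5 CPM, a ratio of 2.56 (2.19 to 2.98), and Srxn1 had a ratio of 1.62 (1.23 to 2.09). At D4 Gclc (2.12, 1.95 to 2.30), Hmox1 (1.78, 1.58 to 2.01) and Nqo1 (1.55, 1.32 to 1.81) were called higher. At D7 they were Srxn1 (1.51, 1.31 to 1.73) and G6pdx (1.64, 1.25 to 2.13), while Gclc was at 1.35 (1.26 to 1.43) and Hmox1 at 1.32 (1.19 to 1.47). A single positive cell held 29 of the 220 Srxn1 UMIs at D7. Without that cell Srxn1 stood at 37.3 CPM in positive cells, beside 28.4 in negative cells, a ratio under the threshold.

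Among all genes 13.1, 9.98 and 12.7% were called higher in Havcr1-positive cells, beside 3, 3 and 2 of the 10, and 14.8, 12.6 and 9.14% lower, beside 0 of the 10. Hmox1 in positive cells went from 129.5 CPM at D1 to 91.3 at D4 and 71.0 at D7, while negative cells stayed between 50.5 and 53.6. Osgin1 lay lower in positive cells, at 0.768, 0.803 and 0.785 times the negative ones, inside the threshold. Prdx1 stayed between 0.949 and 0.988 times. Positive cells were deeper, at median UMIs of 10299, 6399 and 7722.5 against 6937, 4992.5 and 5645. With negative cells weighted to the same depths Gclc was at 2.22, 1.93 and 1.2 times, Hmox1 at 2.57, 1.83 and 1.34, and Nqo1 at D4 at 1.38, which ended its call, while 0 of the 10 were called at D7. Other cells moved with the split too. The neutrophil list summed to 234 CPM in positive and 89.7 in negative cells at D1, and the macrophage list to 132 and 258. The part of neutrophil or macrophage RNA in these ratios was not tested.

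The few Havcr1-positive cells held 4.46, 7.62 and 7.95% of the gate's Gclc UMIs and 5.04, 6.50 and 7.82% of its Hmox1 UMIs, beside 2.03, 3.75 and 6.02% of all UMIs. Havcr1-negative cells alone had Gclc ratios to D0 of 1.47, 0.849 and 1.43, close to those of the whole gate. In them 0, 1 and 1 of the 10 (Osgin1 at D4 and D7) were called higher, beside 9.16, 7.9 and 12.8% of all genes, and 0 lower, beside 1.75, 2.82 and 3.36%.

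**Figure D2:**
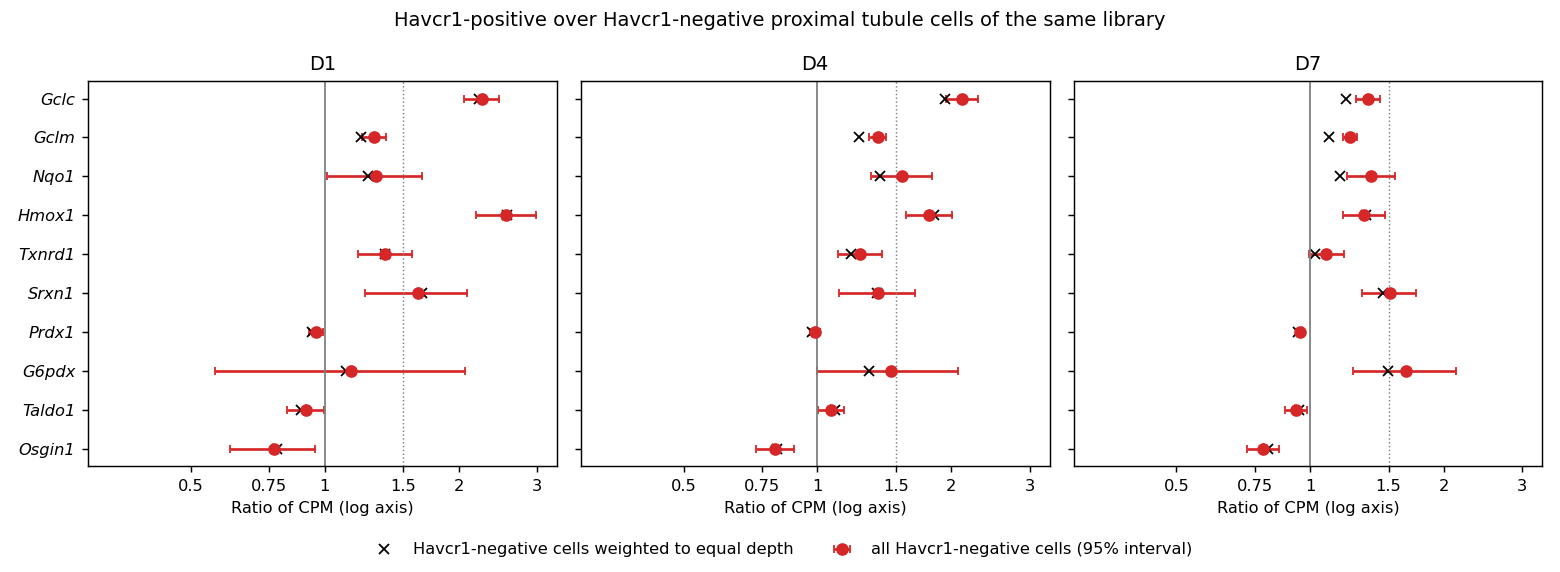
Ratio of CPM in Havcr1-positive over Havcr1-negative proximal tubule cells of 1 library (x axis, log scale) for each gene (y axis) at D1, D4 and D7. Red points have 95% intervals for counting error, black crosses use negative cells weighted to the depths of the positive ones, and lines mark ratios of 1 and 1.5. Hmox1 and Gclc stand right of 1.5 at D1 and D4 and left of it at D7, and Osgin1 stays left of 1.

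In macrophages Hmox1, with which they degrade the haem of engulfed red cells, had 27, 96, 89 and 268 UMIs on the 4 days in order, or 51.0, 109, 125 and 211 CPM. It was above D0 on each later day and highest at D7, with ratios of 2.15 (1.39 to 3.42), 2.46 (1.58 to 3.94) and 4.15 (2.79 to 6.41), all 3 called higher. Carried proximal tubule RNA would give 18.5, 19.0, 33.0 and 19.5 CPM of it. The single cell with the most Hmox1 held 2, 26, 16 and 35 UMIs, and without it the ratios were 1.68, 2.18 and 3.87. Without cells of the proximal tubule gate they were 2.52, 1.97 and 5.38, over 107, 138, 20 and 88 cells, and the interval at D4 (0.872 to 4.37) then included 1. Macrophage gate cells were deeper on each later day, with median UMIs of 2316.5, 3101, 5283 and 5863. A floor of 3000 UMIs per cell, passed by 54 of 158 cells at D0 and 181 of 194 at D7, was among the alternatives. The part of depth was not tested further. Over all alternatives the D7 ratio of Hmox1 lay between 3.84 and 5.38.

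G6pdx had 5, 16, 12 and 53 UMIs in macrophages, or 9.44, 18.2, 16.9 and 41.8 CPM, and was called higher at D7 at 4.43 (1.78 to 14.2) times, with alternatives from 3.82 to 7.13. The value of 7.13 (1.80 to 61.7) came without cells of the proximal tubule gate, from 2 UMIs at D0 and 29 at D7. That pair was under the minimum, so the G6pdx call was lost there. D1 and D4 were under the minimum of 50 UMIs. The make-up of the gate moved with both genes. The 4 monocyte markers (Ly6c2, Ccr2, Plac8 and Lyz2) summed to 2373, 4811, 3559 and 11494 CPM, the 3 neutrophil markers to 117, 18.2, 14.1 and 442 CPM, and the macrophage list fell from 36216 to 20434 CPM between D0 and D7. Endothelial markers summed to at most 3.94 CPM, and podocyte markers were at 0 on each day. The part of monocyte-like cells in the Hmox1 and G6pdx ratios was not tested.

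Gclc was also called higher in macrophages on each day, from 28.3, 76.4, 71.9 and 66.2 CPM at 2.70, 2.54 and 2.34 times D0. Carried proximal tubule RNA would give 49.7, 59.8, 60.2 and 56.5 CPM of it, more than the level at D0 and most of the level on the later days. Without cells of the proximal tubule gate the ratios were 0.781, 0.808 and 1.15, from 3, 4, 1 and 7 UMIs, which is too few for a call. Osgin1 stood at 51.0, 28.5, 151 and 57.6 CPM, with a D4 ratio of 2.96 (1.92 to 4.69) that became 0.606 without those cells, from 8, 3, 2 and 10 UMIs. Carried RNA would give 43.1, 29.2, 97.3 and 52.1 CPM of it. It was called lower at D1, at 0.559 (0.311 to 1.00).

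The remaining genes stayed inside the threshold or under the depth minimum in macrophages. Prdx1 was at 1.35, 1.26 and 1.2 times D0, Gclm at 1.14, 1.35 and 1.21, Txnrd1 at 1.35, 1.31 and 1.35, and Taldo1 at 1.28, 0.768 and 1.16. Nqo1 had 9, 10, 15 and 20 UMIs and Srxn1 6, 11, 14 and 22, too few for a call on any day. Without cells of the proximal tubule gate Prdx1 passed the calling rule at D1 (1.80 (1.48 to 2.21)) and D7 (1.56 (1.28 to 1.91)) and Taldo1 at D7 (1.51 (1.12 to 2.05)). Of all genes 15.4% were called higher in that setting at D1 and 25.2% at D7. Of 7, 7 and 8 measured genes 2, 3 and 3 were called higher and 1, 0 and 0 lower. The background was 11.6, 13.3 and 13.2% higher and 6.42, 11.1 and 12.4% lower.

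**Figure D3:**
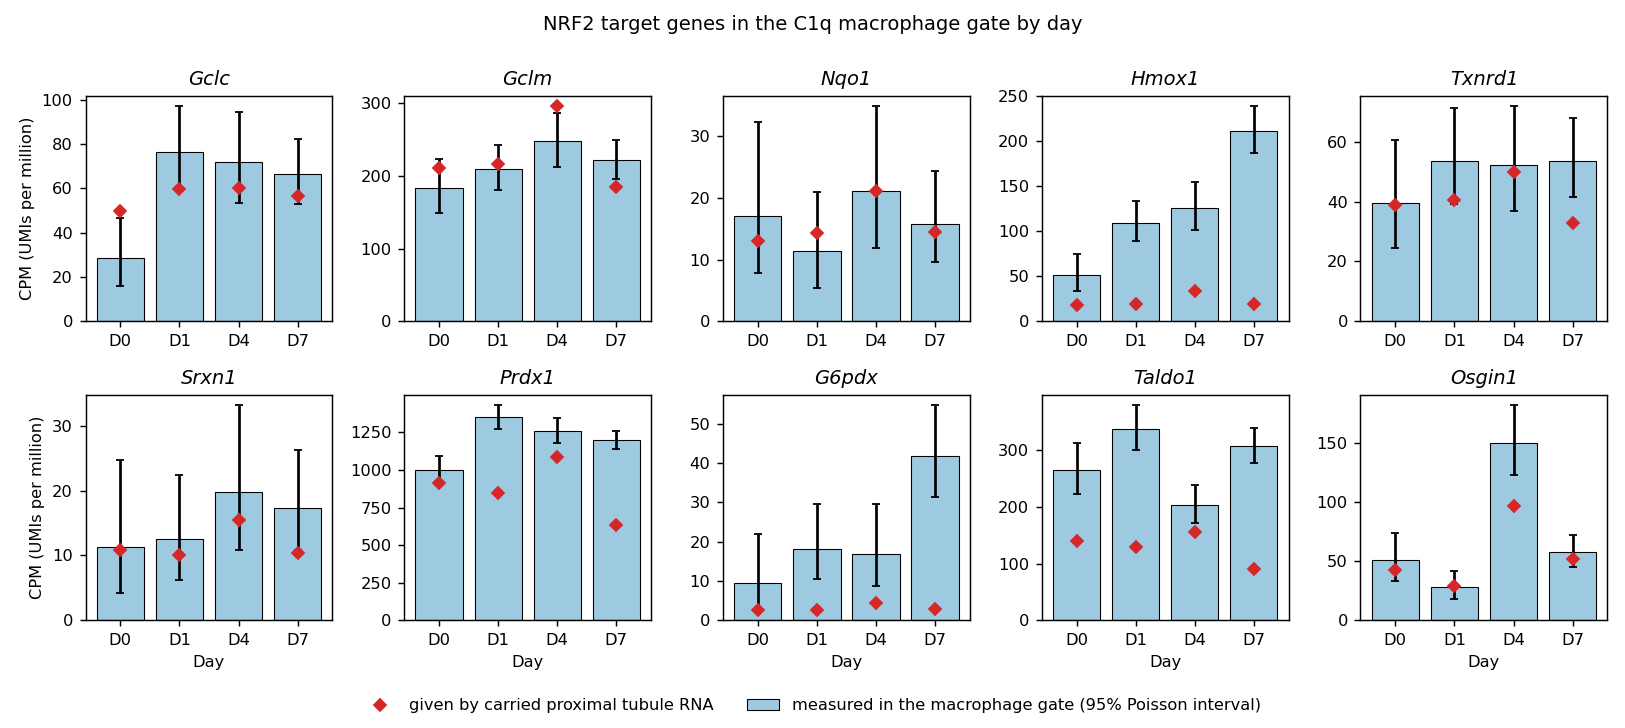
CPM (y axis, from 0) of the 10 genes in the macrophage gate at D0, D1, D4 and D7 (x axis), as bars with 95% Poisson intervals. Red diamonds are the CPM that carried proximal tubule RNA would give. Hmox1 stands at 211 CPM at D7 beside a diamond at 19.5, while Gclc stands at 66.2 beside 56.5.

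In thick limb cells Gclc had 39, 94, 51 and 202 UMIs, or 63.4, 126, 88.7 and 178 CPM. It was called higher at D1 (1.99, 1.36 to 2.97) and D7 (2.81, 1.98 to 4.06), the 2 days on which it was high in proximal tubule cells, and stood at 1.40 (0.903 to 2.18) at D4. Without cells of the proximal tubule gate the D7 ratio was 2.74 (1.66 to 4.74), about as large as with them, and the D1 ratio 1.56 (0.896 to 2.79), with an interval that included 1, in cells whose carried RNA came to 4.07, 3.33, 6.51 and 4.73% at D0, D1, D4 and D7. Osgin1 was called at D7 at 1.69 (0.948 to 3.19) times from 16, 18, 29 and 50 UMIs, an interval that includes 1. Carried proximal tubule RNA would give 25.9, 21.2, 59.6 and 44.4 CPM of it beside levels of 26.0, 24.2, 50.4 and 44.1 CPM, and without cells of the proximal tubule gate 3, 4, 5 and 11 UMIs were left, under the minimum. Gclm (1.44), Txnrd1 (1.27), Srxn1 (1.17), Taldo1 (1.08) and Prdx1 (1.04) were in between at D7, and Nqo1, Hmox1 and G6pdx were under the minimum. So 2 of 7 measured genes were called higher at D7, beside 14.2% of all genes, and 1 of 5 at D1 and 0 of 5 at D4, beside 13.5 and 11.3%. None of the measured genes was called lower on any day, beside 3.96, 5.48 and 5.1% of all genes. Gclm differed from this once the cells of the proximal tubule gate were left out. Its UMIs were then 16, 47, 27 and 60, and D4 was under the minimum. Its ratios of 2.13 (1.18 to 4.02) at D1 and 2.70 (1.54 to 5.03) at D7 passed the calling rule, where 14.1 and 17.8% of all genes were called higher. With proximal tubule RNA subtracted instead, its ratios were 0.616, 0.327 and 2.28, so the D1 direction hung on the correction. With at most 25% mt- UMIs per cell Osgin1 was at 1.24 times at D7.

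In distal tubule cells Hmox1 had 33, 46, 25 and 51 UMIs and was called higher at D1 (1.71, 1.07 to 2.77) and D7 (1.85, 1.17 to 2.96). The D1 call was lost without the single cell with the most Hmox1, where the ratio was 1.31. Txnrd1 at 47.5, 57.9, 57.8 and 74.7 CPM was called at D7 (1.57, 1.22 to 2.03). Osgin1 at 27.6, 20.3, 87.5 and 46.2 CPM was called at D4 (3.18, 2.31 to 4.39) and D7 (1.68, 1.21 to 2.34), and Gclm at D4 (1.52, 1.30 to 1.78). Without cells of the proximal tubule gate Osgin1 was at 2.18 times at D4 and 0.953 times at D7, from 10, 6, 5 and 7 UMIs on the 4 days, and Gclm at 1.26 times at D4, where TMM scaling (1.32) ended its call too. Gclc, at 130.2, 137, 137 and 165 CPM, was not called on any day (1.05, 1.05 and 1.26). Of 9 measured genes 1, 2 and 3 were called higher at D1, D4 and D7, beside 8.48, 16.1 and 16.3% of all genes, and 0 lower, beside 4.66, 4.4 and 2.25%. The median mt- share of the cells in this gate fell over the days, at 32.5, 25.7, 21.6 and 19.3%, and mt- UMIs count in the CPM total. With mt- UMIs left out of the total, the count of 3 at D7 became 1. The part of this fall in the ratios of single genes was not tested. TMM scaling shifts the log2 ratios of this gate by -0.10, -0.20 and -0.24, and with it only Hmox1 (1.56 times) remained called at D7. Without cells of the proximal tubule gate Hmox1 kept 9 UMIs at D0 and 15 at D7, under the minimum, so its D7 call was lost there. Txnrd1 was then the 1 member called at D7, at 1.71 (1.16 to 2.52) times. With all cells, carried proximal tubule RNA would give 10.2 of the 14.0 CPM of Hmox1 at D0 and 17.3 of the 25.9 CPM at D7. For Osgin1 it would give 23.8 of 27.6 CPM at D0, 75.2 of 87.5 at D4 and 46.19 of 46.24 at D7. For Gclm it would give 117 of 156 CPM at D0 and 229 of 238 at D4.

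**Figure D4:**
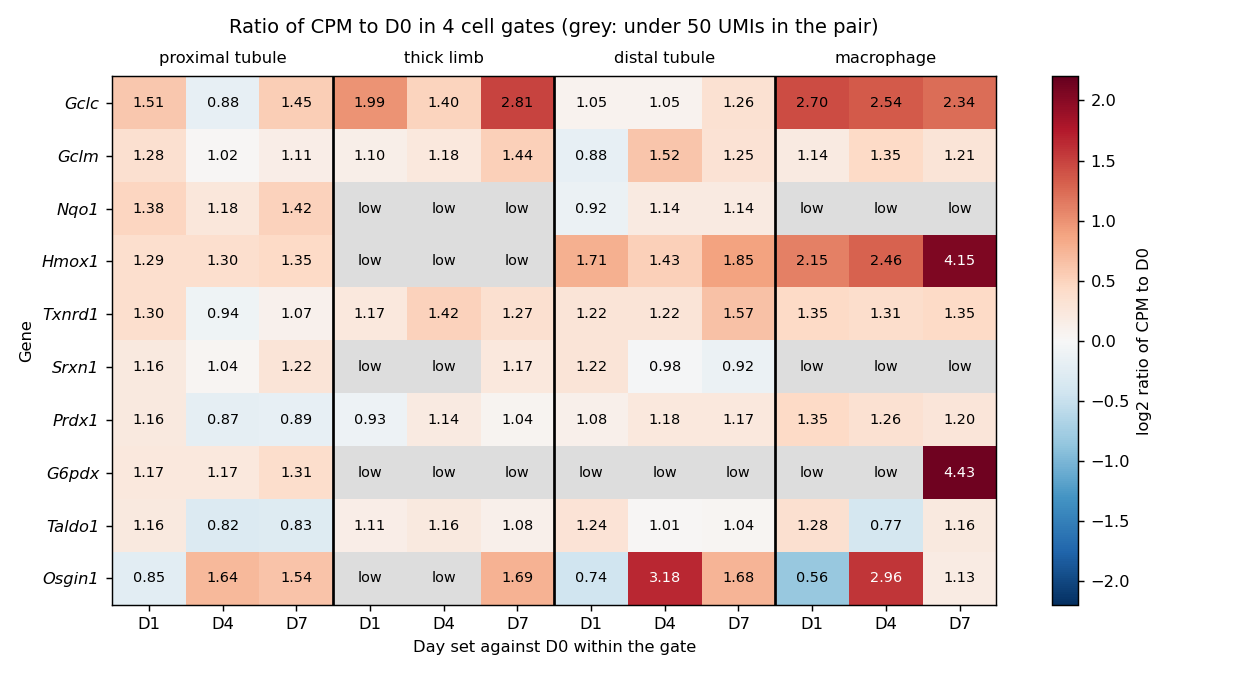
Ratio of CPM to D0 (number and colour, on a log2 colour scale) for the 10 genes (rows) at D1, D4 and D7 in 4 cell gates (columns), 1 library per day. Grey cells had under 50 UMIs in both libraries together. The largest ratios are those of Hmox1 and G6pdx in macrophages at D7, and Gclc is high at D1 and D7 in proximal tubule and thick limb cells.

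The regulators of the pathway were read from a list of 10 genes. In proximal tubule cells Nfe2l2, which encodes NRF2 and is itself a target, stood at 57.4, 67.9, 75.5 and 78.3 CPM, with ratios of 1.18, 1.31 and 1.36 (1.31 to 1.41), under the threshold. At D7 it was called higher in thick limb (1.65, 1.27 to 2.18), distal (1.68, 1.39 to 2.03) and macrophage cells (1.56, 1.19 to 2.06). The distal call was lost with TMM scaling (1.42) and the macrophage call without cells of the proximal tubule gate (1.25). Whether these ratios differ from the proximal tubule was not tested. Maff, a small MAF partner of NRF2, was called higher in proximal tubule cells at D1 (2.15, 1.62 to 2.86) and D7 (3.27, 2.54 to 4.26) from 79, 141, 93 and 271 UMIs. In Havcr1-positive cells Maff was 7.99 (4.71 to 12.9), 11.6 (7.23 to 18.3) and 4.44 (3.27 to 5.94) times as high as in negative cells at D1, D4 and D7, while Nfe2l2 was at 0.931, 1.02 and 1.19 times. Nfe2l1 was called higher there on all 3 days (1.61, 1.71 and 1.54, and 1.42 at D7 with depth weighting), Mafk at D1 and D7 (1.88 and 1.92) and Sqstm1 at D1 (1.63). Bach1 was called lower at D1 (0.627), and Keap1, Cul3, Mafg and Dpp3 lay between 0.729 and 1.18.

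The other 8 regulators were in between in proximal tubule cells at D7. Keap1 was at 1.00 times D0, Cul3 at 0.864, Mafg at 0.927, Mafk at 1.13, the competitor Bach1 at 1.13, Nfe2l1 (a related factor) at 1.04, Dpp3 (a KEAP1 binder) at 1.02 and Sqstm1 at 1.03. Sqstm1, an autophagy receptor that binds KEAP1, was called at D7 in thick limb (2.15, 1.54 to 3.07) and distal cells (1.78, 1.44 to 2.21), and Mafg was called lower in macrophages (0.659, 0.460 to 0.951), where TMM scaling gave 0.683 and ended the call.

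A wider list of 39 known targets gave 13 of 36 measured genes called higher at D1, 5 of 35 at D4 and 12 of 37 at D7 in proximal tubule cells, and 1, 2 and 1 lower. The background given above was 9.39, 8.17 and 13.3% higher and 1.71, 2.87 and 3.43% lower. With TMM scaling 8, 5 and 9 were called higher, beside 7.44, 7.73 and 11.8% of all genes under the same scaling. The 6 highest at D7 were Gsta1 (a glutathione transferase, 11, 8.31 to 14.9), Slc7a11 (the cystine importer, 9.54, 4.39 to 24.6), Cbr3 (a carbonyl reductase, 9.16, 6.46 to 13.4), Aldh1a1 (an aldehyde dehydrogenase, 5.70, 4.76 to 6.86), Ephx1 (an epoxide hydrolase, 3.50, 2.73 to 4.53) and Akr1b8 (an aldo-keto reductase, 2.36, 1.89 to 2.96). All 6 were sparse, with no more than 9.86 CPM on any day, and Slc7a11 had 7, 25, 20 and 70 UMIs. Ces1g, a carboxylesterase, was the 1 gene called lower, at 0.201 (0.175 to 0.230) times, and fell through 15.2, 6.54, 6.14 and 3.06 CPM. Gsta1, Cbr3 and Aldh1a1 have close paralogs, so their counts depend on how shared reads were assigned.

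More abundant targets went both ways between D0 and D7 in proximal tubule cells. Mgst1 went from 66.7 to 121 CPM, Cbr1 from 45.7 to 82.2 and Pgd from 37.0 to 57.7, while Me1 went from 294 to 231. The transferase Gsta2 (651, 1063, 703 and 839 CPM) was called higher at D1 at 1.63 times D0 (1.48 and not called with TMM scaling) and stood at 1.29 times at D7. Gstm1 did likewise at 1.53 (1.39 with TMM scaling) and 1.07 times, and the ferritin chain Fth1 (16956, 19508, 16619 and 16392 CPM) was at 1.15 and 0.967 times. In macrophages 4 of 19 measured genes of the list were called higher at D7 and 0 lower, beside 13.2% higher and 12.4% lower of all genes. They were Blvrb (1.74, 1.33 to 2.29), which acts after Hmox1 in haem breakdown, Mgst1 (2.25, 1.31 to 4.10), the NADPH-forming Pgd (1.72, 1.16 to 2.64) and glutathione reductase Gsr (1.55, 1.03 to 2.38). Without cells of the proximal tubule gate Blvrb (2.35) and Pgd (2.00) were still called, and Mgst1 (1.2) and Gsr had under 50 UMIs. At D7 1 of 22 measured genes of the list was called higher and 1 lower in thick limb cells, beside 14.2 and 5.1% of all genes. In distal cells 7 of 25 were called higher and 1 lower, beside 16.3 and 2.25%. Both pairs of counts moved with the processing. In thick limb cells they went to 6 of 12 higher and 0 lower without cells of the proximal tubule gate, beside 17.8 and 7.73% of all genes. In distal cells they went to 3 of 25 higher and 4 lower with TMM scaling, beside 7.44 and 7.11%.

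**Figure D5:**
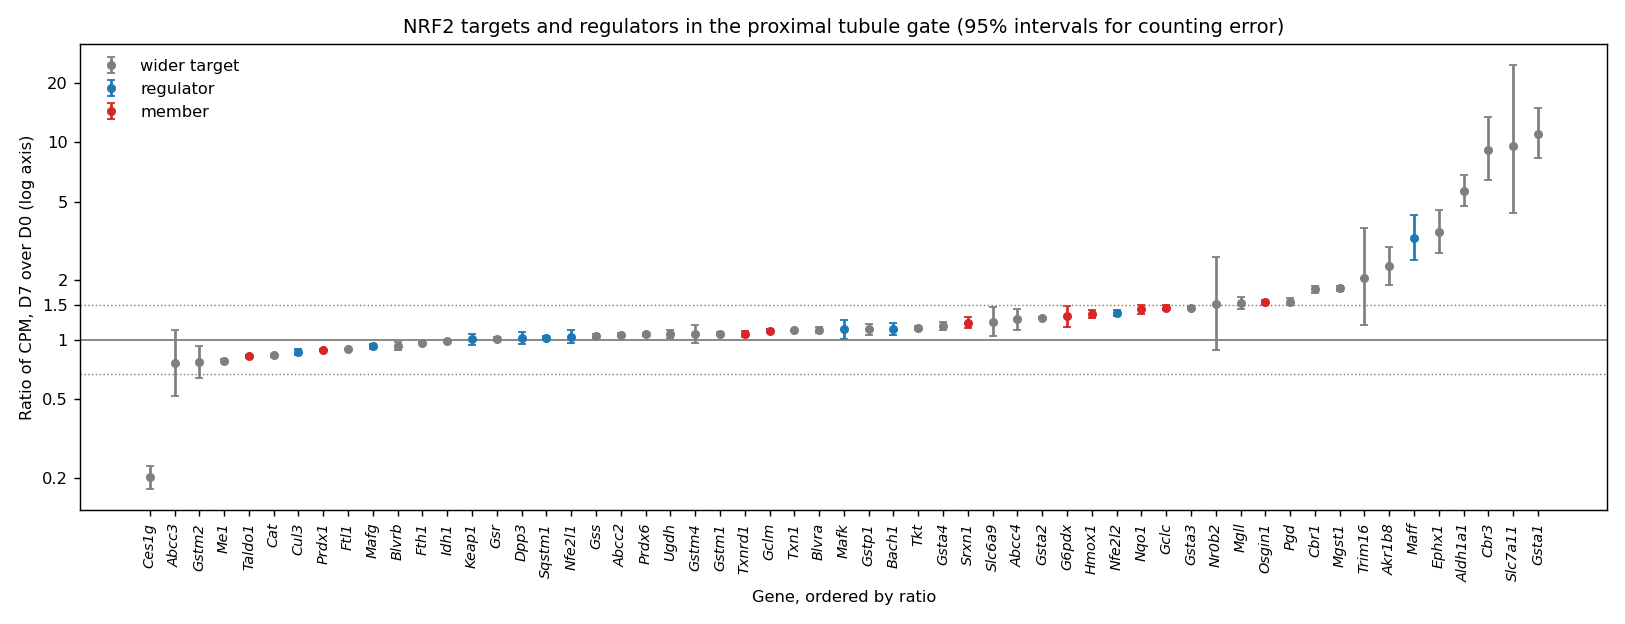
Ratio of CPM at D7 over D0 in proximal tubule gate cells (y axis, log scale) for the genes with at least 50 UMIs (x axis, ordered by ratio), with 95% intervals for counting error. Red points are the 10 genes of the report, blue points the regulators and grey points the wider list, and dotted lines mark the calling thresholds. Osgin1 is the 1 red point above the upper line, and Gsta1, Slc7a11 and Cbr3 have the highest ratios.

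Across the 16 points of 4 gates by 4 days, the genes whose log2 levels varied most like a member's differed from member to member. Over 9825 genes ranked by Pearson's r, the nearest 2 were Nbr1 and Dph3 for Gclc (r = 0.919 and 0.908), Gstm1 and Chpt1 for Gclm (0.987 and 0.978), Pole4 and Pak1 for Hmox1, Capg and Anxa1 for G6pdx, Hspe1 and Hint1 for Prdx1, and Tmem252 and Cyp4a31 for Osgin1. For Nqo1 they were C130074G19Rik and Dusp19, for Txnrd1 Zfand2b and Ybx1, for Srxn1 Yap1 and Got2, and for Taldo1 Dnajc2 and Tcp11l1. Gates of 1 day share a library and carried RNA, so these are descriptions with no p.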

How the data were processed

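Kidneys were digested with trypsin and DNase I, red cells were lysed, and the cells of 4 libraries, 1 per day, were profiled by 10x 3′ sequencing, and the authors deposited UMI counts per gene and cell, which are used as deposited. Per the submitters' processing notes the reads went through Cell Ranger 3.1.0 against mm10, the matrix headers name 3.0.1, and the sources used here give neither the annotation nor how cells were called. Grouping follows the labels' time points.

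Counts were summed over the cells of a gate within a library and scaled to CPM. Ratios have exact conditional intervals (numpy 2.4.6, scipy 1.17.1), and carried RNA is the median over 12 proximal tubule markers of the level in a gate relative to the proximal tubule gate. Calls need a 1.5-fold ratio and 50 UMIs, and the calculation was tested on simulated data. No doublet caller was run. Cells of more than 1 gate, the top 5% of UMIs and, as choices added after the data were seen, proximal tubule gate cells, subtracted proximal tubule RNA, the cell with the most UMIs of a gene, the wider and regulator lists under TMM and without proximal tubule gate cells and, for the Havcr1 comparison, a floor of 3000 UMIs served as alternatives, beside edgeR 4.0.16 TMM factors used as a scaling only. Other alternatives changed the mt- limit, the gates, the depth minimum, the Havcr1 threshold and the total. The members, gene lists and markers were chosen with earlier results of these data known. Named are all 10 members in each gate, every regulator, the 6 highest and up to 4 lowest called wider targets at D7 in proximal tubule cells, and the 2 nearest genes of each member. Other genes were named after their values were seen. Sequences are from RefSeq (GRCm38.p6).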

Additional observations from a re-analysis of the deposited data

Results flagged for a closer look

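Barcodes with more than 50% mt- UMIs were used in no comparison. Scaled to UMIs without mt- genes, 3 of the 10 genes were at least 1.5-fold above their D0 level there at D7, with an interval above 1. Of all 6715 genes with 50 UMIs in these barcodes 5.5% met the same rule, and 9 of the 10 had that depth. Gclc was 1.53-fold higher (1.33 to 1.76; 309 UMIs at D7 and 562 at D0). Nqo1 was 2.38-fold higher (1.69 to 3.35; 66 and 77 UMIs). Hmox1 was 1.58-fold higher (1.05 to 2.33; 42 and 74 UMIs). These barcodes numbered 1941, 1302, 324 and 632 at D0, D1, D4 and D7, and their median mt- share was 84.9, 92.2, 62.1 and 64.7%. The part of that difference in these ratios was not tested.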

How the results depend on the processing

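Counts of members called kept within 1.5 times their value in 74 of 90 alternatives and moved in 16. In proximal tubule cells the D1 count of 1 became 0 with cells of at least 3000 UMIs, with TMM factors and with mt- UMIs left out of the total, and the D7 count of 1 became 0 with the top 5% of UMIs left out and with TMM factors. In thick limb cells the D7 count of 2 became 1 with at most 25% mt- UMIs and with stricter gates, and 4 with a minimum of 1 UMI. In distal tubule cells the D7 count of 3 became 1 with at most 25% mt- UMIs, TMM factors, mt- UMIs left out and proximal tubule gate cells left out. In the Havcr1 comparison the D4 count of 3 became 7 with Havcr1 at least 2, and the D7 count of 2 became 0 with depth weighting and with at most 25% mt- UMIs. The D4 count of 3 along the tubule became 1 with a threshold of 1 UMI. Of the wider list, the count called higher fell from 13 to 8 at D1 in proximal tubule cells, from 1 to 0 at D7 in thick limb and from 7 to 3 at D7 in distal cells with TMM factors, where the count lower in distal cells went from 1 to 4. All-gene shares with TMM factors were 7.44, 11 and 7.44% higher in that order, and 7.11% lower in distal cells. Without proximal tubule gate cells the thick limb count went from 1 to 6 higher and from 1 to 0 lower, beside 17.8 and 7.73% of all genes. The distal count lower went from 1 to 0 there, beside 2.95%. The macrophage counts at D7 stayed within 1.5 times, but the genes behind them changed. Of the members, Hmox1, G6pdx and Gclc were called with all cells, and Hmox1, Prdx1 and Taldo1 without proximal tubule gate cells. Of the wider list, 6 of 9 measured genes were then called higher in macrophages, beside 25.2% of all genes. Only 2 of those 6 were among the 4 called with all cells. The cause of these moves was not tested. Of 1263 alternatives for single genes 1056 stayed inside the 95% interval of the main value, 201 moved and 6 reversed. The reversals came without proximal tubule gate cells (Gclc in macrophages 0.781 at D1 and 0.808 at D4, Osgin1 in macrophages 0.606 at D4, Osgin1 in distal cells 0.953 at D7) or with proximal tubule RNA subtracted (Gclm in distal cells 0.326 at D4, Osgin1 in distal cells 0.0148 at D7). Subtraction could not be computed where carried RNA met or exceeded the level at D0. No paired analysis was possible because each day had 1 library. Depth limits G6pdx, Nqo1, Srxn1 and Hmox1 outside the proximal tubule, where many pairs held under 50 UMIs.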

Other observations

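Across the same 16 points of gate and day, the 10 genes were not alike in where they were high. Gclm and Prdx1 varied most alike (r = 0.936), followed by Gclm and Osgin1 (0.790), while Hmox1 and Srxn1 ran against each other (-0.628). At D0 Srxn1 was 1.81 times as high in distal as in proximal tubule cells, and at D7 Hmox1 was 3.87 times and G6pdx 5.31 times as high in macrophages as in proximal tubule cells. These gates share libraries and carried RNA, so no p is given.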
